A study of Mus musculus with 66 samples.

Results

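Solute carrier genes encode the proteins that move amino acids, sugars, nucleotides, metals, inorganic ions and metabolites across the plasma membrane and the membranes of organelles. The members described here were the genes whose symbol starts with Slc followed by a digit and whose reads at sense poly(A) sites averaged at least 20 per library over the 7 libraries of 3'READS, a method that sequences the 3' ends of polyadenylated RNA. This rule kept 159 of the 284 Slc genes with a sense site, out of 15777 genes with such a site. The members were thus chosen by their 3'READS abundance, which is given as a description. Just outside the threshold lay Slc7a2, Slc39a8 and Slc44a5 with 17.43, 17.57 and 18.86 reads on average, and just inside lay Slc43a2, Slc19a2 and Slc40a1 with 20.71, 21.0 and 21.29.

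The cells were C2C12 myoblasts, a mouse skeletal muscle cell line, transfected for 48 h with 50 nM siRNA against a subunit of the Paf1 complex (siPaf1, siCdc73 or siSki8) or with a non-specific control siRNA (siCtrl). Both 3'READS and RNA-seq covered siCtrl, siPaf1 and siCdc73 in batch 1 and in batch 2, whereas siSki8 was present in batch 2 alone, giving 7 libraries per assay. The Paf1 complex travels with RNA polymerase II, and the study asked whether its subunits differ in their effects on cleavage and polyadenylation. Ski8 is listed under the symbol Wdr61.

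A pre-mRNA is cut and polyadenylated at a poly(A) site, usually a short distance after the hexamer AATAAA or its variant ATTAAA. Many genes carry several sites. Use of different sites within the last exon changes the length of the 3'UTR and leaves the protein intact (3'UTR-APA), whereas cleavage in an intron or an internal exon removes the rest of the reading frame (CDS-APA). For a membrane transporter such a cut takes away membrane-spanning segments, and the short RNA may be translated or degraded. Promoters can also give rise to short antisense RNAs (upstream antisense RNA, uaRNA).

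The members held 511 sites in the 3'-most exon, 197 intronic sites, 6 internal exon sites and 38 antisense sites. The median member had 4 sense sites, and 29 members had a single one. At least 1 intronic or internal exon site was listed for 76 members. The hexamer AATAAA lay in the last 30 bases before the site for 36.99% of their 3'-most exon sites, 42.13% of their intronic sites and 33.33% of their internal exon sites, against 39.59%, 41.21% and 21.82% of the sites of all genes, and ATTAAA alone added between 12.13% and 16.67% in the members. Both hexamers were searched on the strand of the gene.

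The libraries held between 5302728 and 14340927 3'READS reads and between 2796693 and 8160386 RNA-seq counts. The siRNA targets were low where they should be: Paf1 had 119.6 and 162.8 CPM (RNA-seq counts scaled to library size) in siCtrl and 22.93 and 31.82 in siPaf1, Cdc73 went from 122.4 and 100.3 to 14.56 and 19.32 in siCdc73, and Wdr61 from 55.71 and 131.6 to 5.024 in siSki8. Paf1 stood at 269.8 and 367 CPM in siCdc73. Of 5 myoblast markers, Des lay between 515.3 and 1835 CPM in 3'READS, Cdh15 between 32.06 and 705.8 and Myf5 between 7.176 and 36.19, while Myod1 and Pax7 stayed under 0.63 CPM. Cdh15 was lower in siPaf1 and siCdc73 than in siCtrl within each batch, and Pax7 reached 12.64 RPKM in siCtrl batch 1 of RNA-seq. Of the muscle differentiation markers, Acta1 had 7.18 and 21.6 CPM in siCtrl and 29.9 and 57 in siPaf1. Tnnt3 had 1.22 and 4.49 against 4.48 and 14.7, and Myh3 48.3 and 51.9 against 62.7 and 190. Myog, Ckm and Tmem8c did not rise in both batches. In siCdc73, Acta1, Myh3, Myog and Tmem8c lay below siCtrl within each batch and Tnnt3 above. Their part in the results was not tested. Among 10 markers of other cell types the leukocyte gene Cd68 lay between 1.808 and 6.141 CPM, the endothelial gene Cdh5 reached 1.205 and the neural gene Syp 0.812, the other 6 stayed under 0.52 CPM or were not listed in 3'READS, and the sperm gene Prm1 reached 1603 CPM in siPaf1 batch 2 and 19.8 in siCdc73 batch 2, against at most 1.84 in the other 5 libraries. In that siPaf1 library 204 genes stood over 20-fold above every other library, 3 of them members, and 9 members passed the threshold of 20 reads only because of it: Slc12a8, Slc16a7, Slc17a7, Slc22a18, Slc2a5, Slc30a3, Slc40a1, Slc43a2 and Slc9a10. Its part in the results was not tested. Counts of levels over all members are given with and without these 9, a choice made after seeing the data, and 3'READS class counts are given without them where the number called changes. In RNA-seq Prm1 was listed at 0 in every library. In bulk RNA, fewer cells expressing a gene and less RNA per cell cannot be told apart.

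Most calls of change below rest on a fit with the batch as a term. The study's methods name no batch term, and its own tests were not rerun. The design without the term called 0 of 80 members changed in RNA-seq and 0 of 159 in 3'READS in each knockdown by edgeR's quasi-likelihood test, as it called 0% of all 6521 and 12579 genes tested. At an unadjusted p under 0.05 that fit gave 20 members in RNA-seq and 24 in 3'READS with siPaf1, where 17.7% and 13.5% of all genes passed. With siCdc73 it gave 16 and 23 members, against 21.1% and 15.3% of all genes, and with siSki8 it gave 3 and 9, against 5.54% and 3.33%. Libraries of the same batch deviated together, and the labels name the number a batch. "Rose" and "fell" are therefore used of genes past an adjusted p of 0.05 in edgeR's fit with the batch term, and the adjusted p of both fits is printed for each. With 2 libraries per group these calls often rest on single libraries. Of all calls of members in the 4 contrasts with the batch term, 21 of 95 in 3'READS levels, 19 of 92 in RNA-seq, 1 of 12 for 3'UTR-APA, 6 of 18 for CDS-APA and 0 of 1 for uaRNA passed with each siCtrl, siPaf1 or siCdc73 library left out in turn. For a gene described with its values, the libraries without which its call was lost are named, and genes named only in a count may have lost theirs. A value is given beside a lost call where it moved by over 1.5 times. Log2 changes of level are on the CPM scale.

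Some members changed in where their transcripts ended, which is described first. Slc30a4, a zinc transporter that loads zinc into intracellular vesicles, gained transcripts that ended inside the coding region, which made up 39.6% and 54.2% of its reads in siCdc73. The sequences before its 3 sites are shown because the site in exon 3 of 7, after 220 of 429 codons, carries the change. The capitals mark AATAAA or ATTAAA, each run ends at the cleavage site, and coordinates here and below are on mm9.
Slc30a4 internal exon site, chr2:122515166-122515195 (minus strand): atgaAATAAAcggcgatgtcatgctcatca
Slc30a4 proximal 3'UTR site, chr2:122510468-122510497 (minus strand): tgttctctttttataaaaattagccctcaa
Slc30a4 distal 3'UTR site, chr2:122506969-122506998 (minus strand): ATTAAAaacttaaaatgtacagtcccctaa
The internal exon site holds AATAAA within coding sequence, the proximal 3'UTR site holds neither hexamer in this window, and the distal site holds ATTAAA.

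Reads of Slc30a4 at the internal exon site numbered 0 of 610 and 2 of 1959 in siCtrl, 37 of 454 and 70 of 956 in siPaf1, 288 of 531 and 825 of 2081 in siCdc73 and 3 of 1461 in siSki8. As shares of its reads these were 0% and 0.102% in siCtrl, 8.15% and 7.32% in siPaf1, 54.2% and 39.6% in siCdc73 and 0.205% in siSki8. The 2 siCdc73 libraries were highest, the 2 siPaf1 libraries lay between them and the rest, and the siSki8 library lay just above siCtrl. The 95% Wilson intervals ran from 50.0% to 58.4% and from 37.6% to 41.8% in siCdc73, and 0 of 610 reads in siCtrl batch 1 allows a share of up to 0.492%. Such intervals cover counting error only. The log2 ratio of internal to 3'-most exon reads rose by 6.22 (SE 0.77, adjusted p = 1.4e-13 with the batch term and 0.014 without) after siPaf1 and by 9.59 (SE 0.73, adjusted p = 2.4e-35 with the batch term and 0.0012 without) after siCdc73, in edgeR's test of the isoform by knockdown interaction, and no single library decided either call. The direct difference in log2 ratio, siPaf1 minus siCdc73, was -3.37 (adjusted p = 1.2e-07 with the batch term and 0.47 without).

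**Figure D1:**
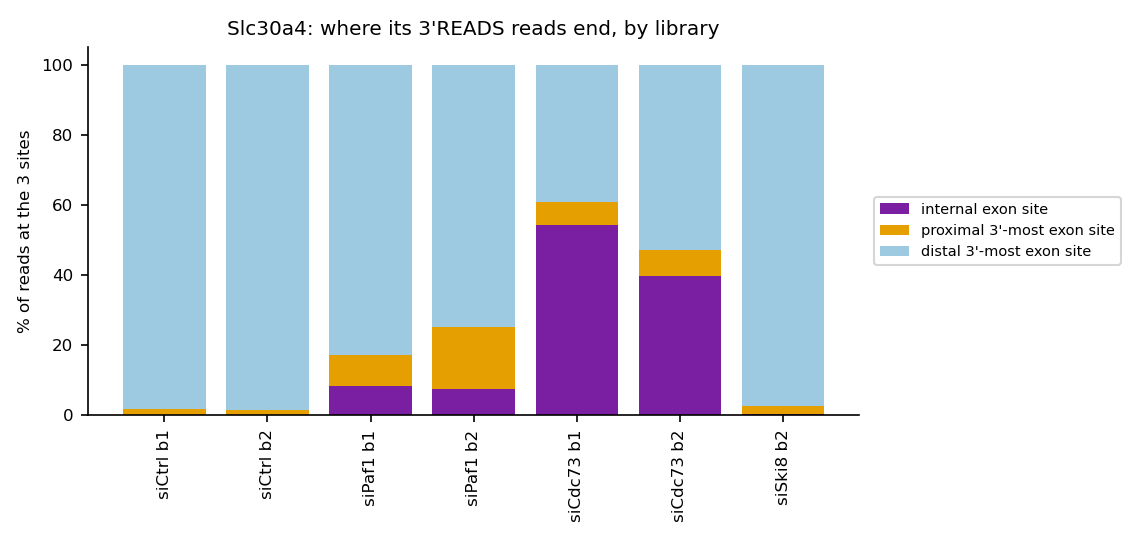
Stacked bars give the share of the 3'READS reads of Slc30a4 (percent of its reads at 3 sites, y axis) at the internal exon, proximal and distal 3'-most exon sites in each of the 7 libraries (b1 and b2 are the batches). The internal exon share was 54.2% and 39.6% in siCdc73, 8.15% and 7.32% in siPaf1 and at most 0.205% in siCtrl and siSki8, and the distal site held at least 97.4% in siCtrl and siSki8.

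Within its 3'UTR Slc30a4 also moved toward the proximal site. The proximal share of the reads at both 3'UTR sites was 1.80% and 1.38% in siCtrl, 9.83% and 19.3% in siPaf1, 14.4% and 12.1% in siCdc73 and 2.40% in siSki8. All 4 siPaf1 and siCdc73 libraries lay above the other 3. The log2 ratio of proximal to distal reads rose by 3.40 (SE 0.52, adjusted p = 2.0e-07 with the batch term and 0.56 without) after siPaf1 and by 3.25 (SE 0.52, adjusted p = 1.5e-06 with the batch term and 1.0 without) after siCdc73. The siCdc73 call was lost without siCtrl replicate 2 (adjusted p = 0.092). The summed level of Slc30a4 over all its sites was 86.9 and 206 CPM in siCtrl, 62.3 and 104 in siPaf1, 109.6 and 156 in siCdc73 and 179 in siSki8 in 3'READS, and in RNA-seq it was 621 and 329 CPM in siCtrl, 318 and 248 in siPaf1, 404 and 203 in siCdc73 and 359 in siSki8. It fell after siPaf1, with a log2 change of -0.85 (SE 0.28, adjusted p = 0.044 with the batch term and 0.46 without) in 3'READS and of -0.69 (SE 0.23, adjusted p = 0.020 with the batch term and 0.43 without) in RNA-seq. The first call was lost without siCtrl replicate 2 or siPaf1 replicate 2 (adjusted p = 0.53 at a value of -0.56 and 0.10), and the second without siCtrl replicate 1, siCtrl replicate 2, siPaf1 replicate 1 or siCdc73 replicate 2 (adjusted p = 0.25, 0.070, 0.17 at a value of -0.40 and 0.050). The value after siCdc73 was 0.05 (SE 0.27, adjusted p = 0.93 with the batch term and 1.0 without) in 3'READS and -0.48 (SE 0.23, adjusted p = 0.089 with the batch term and 0.56 without) in RNA-seq.

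Slc38a2, the sodium-coupled neutral amino acid transporter that cells induce when amino acids are short, gained transcripts that ended in intron 4 of 15, after 104 of 503 codons. This intronic site and those of the 3 other members with the clearest intronic gains are shown because they mark where the shortened transcripts end.
Slc38a2 intron 4, chr15:96527022-96527051 (minus strand): gtaaccattttAATAAAtggctaaatgata
Slc1a4 intron 1, chr11:20231484-20231513 (minus strand): gaatAATAAAactggagttagttatgtgga
Slc4a8 intron 2, chr15:100605491-100605520 (plus strand): caAATAAActatcagtcgtttaaaaggcca
Slc6a6 intron 5, first site, chr6:91676680-91676709 (plus strand): atcatctccaaacatggtggttttaaccaa
Slc6a6 intron 5, second site, chr6:91678386-91678415 (plus strand): gtgagagcaatgaactattttgatgcagag
The sites of Slc38a2, Slc1a4 and Slc4a8 each hold AATAAA, while neither window of Slc6a6 holds AATAAA or ATTAAA.

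The intronic reads of Slc38a2 numbered 25 of 2080 and 25 of 2689 in siCtrl, 299 of 2092 and 299 of 2603 in siPaf1, 219 of 1330 and 309 of 3711 in siCdc73 and 2 of 1961 in siSki8. Their share was 1.20% and 0.930% in siCtrl, 14.3% and 11.5% in siPaf1, 16.5% and 8.33% in siCdc73 and 0.102% in siSki8. Each siPaf1 and siCdc73 library lay above every siCtrl and siSki8 library, and the siPaf1 and siCdc73 ranges overlapped. The log2 ratio of intronic to 3'-most exon reads rose by 3.76 (SE 0.52, adjusted p = 5.3e-11 with the batch term and 0.029 without) after siPaf1 and by 3.62 (SE 0.52, adjusted p = 2.4e-10 with the batch term and 0.025 without) after siCdc73, and both calls held with any single library left out. The difference between the 2 knockdowns was 0.14 (SE 0.48, adjusted p = 0.93 with the batch term and 0.99 without). The summed level of the gene was 289 and 280.5 CPM in siCtrl, 275 and 201 in siPaf1, 258 and 265 in siCdc73 and 244 in siSki8, and its log2 change was -0.37 (SE 0.27, adjusted p = 0.36 with the batch term and 0.76 without) after siPaf1 and -0.02 (SE 0.27, adjusted p = 0.98 with the batch term and 1.0 without) after siCdc73. Slc38a2 was not listed in the RNA-seq table.

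Slc6a6, the taurine transporter, showed its intronic gain after siCdc73. The reads at the 2 sites of intron 5 of 14, after 199 of 620 codons, numbered 6 of 93 and 6 of 54 in siCtrl, 4 of 30 and 4 of 66 in siPaf1, 74 of 110 and 146 of 218 in siCdc73 and 4 of 112 in siSki8. The intronic share was 6.45% and 11.1% in siCtrl, 13.3% and 6.06% in siPaf1, 67.3% and 67% in siCdc73 and 3.57% in siSki8. Both siCdc73 libraries stood far above the other 5, and siPaf1 overlapped siCtrl. The log2 ratio rose by 4.38 (SE 0.89, adjusted p = 1.6e-05 with the batch term and 0.046 without) after siCdc73 and was 0.17 (adjusted p = 0.97 with the batch term and 0.98 without) after siPaf1. The direct difference, siPaf1 minus siCdc73, was -4.22 (SE 0.91, adjusted p = 4.1e-04 with the batch term and 0.47 without) and was lost without siPaf1 replicate 2 (adjusted p = 0.26) and without siCdc73 replicate 2 (adjusted p = 0.086). Summed over its sites, Slc6a6 had 16.4 and 7.45 CPM in siCtrl, 4.61 and 8.06 in siPaf1, 29 and 21.8 in siCdc73 and 15.8 in siSki8. It rose after siCdc73 by 1.20 (SE 0.39, adjusted p = 0.037 with the batch term and 0.39 without). The call was lost without siCtrl replicate 2 (a value of 0.62) or siCdc73 replicate 1, and the value was 1.94 without siCtrl replicate 1. This level includes the intronic reads, 74 and 146 in siCdc73 against 6 and 6 in siCtrl. The level at the 3'-most exon alone was not tested.

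Slc1a4, a transporter of alanine, serine and cysteine, gained reads in intron 1 of 7, after 175 of 531 codons. The share was 0.840% and 0% in siCtrl, 6.81% and 12.2% in siPaf1, 3.55% and 9.53% in siCdc73 and 2.02% in siSki8, so that all 4 siPaf1 and siCdc73 libraries exceeded siCtrl and siSki8. The log2 ratio rose by 4.30 (SE 0.85, adjusted p = 1.1e-05 with the batch term and 0.082 without) after siPaf1 and by 3.71 (SE 0.88, adjusted p = 3.3e-04 with the batch term and 0.11 without) after siCdc73. The first call was lost without siCtrl replicate 2 (adjusted p = 0.070 at a value of 2.87), and the second was lost without siCtrl replicate 2 (adjusted p = 0.22 at a value of 2.24) and without siCdc73 replicate 2 (adjusted p = 0.11). Without siCtrl replicate 1 they were 6.91 and 6.28. Slc4a8, a sodium-driven chloride and bicarbonate exchanger, gained reads in intron 2 of 24, after 42 of 1088 codons. The share of its reads there was 1.57% and 1.13% in siCtrl, 6.73% and 15.8% in siPaf1, 11% and 10.9% in siCdc73 and 1.86% in siSki8. Again the siPaf1 and siCdc73 libraries did not overlap the others. Its ratio rose by 3.1 (SE 0.88, adjusted p = 0.0037 with the batch term and 0.13 without) after siPaf1, a call lost without siCtrl replicate 2 (adjusted p = 0.23) and without siPaf1 replicate 2 (adjusted p = 0.32), and by 3.04 (SE 0.89, adjusted p = 0.0049 with the batch term and 0.11 without) after siCdc73, a call lost without siCtrl replicate 2, siCdc73 replicate 1 or siCdc73 replicate 2 (adjusted p = 0.24, 0.078 and 0.051).

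**Figure D2:**
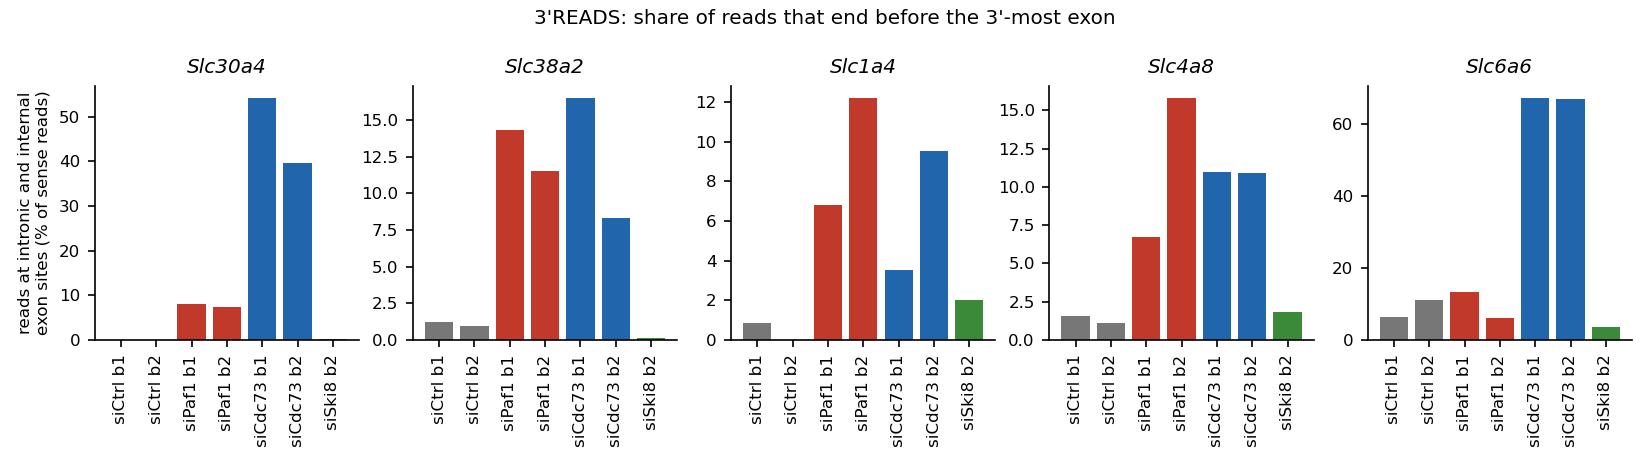
Share of reads at intronic and internal exon sites (percent of the gene's 3'READS reads, y axis) for 5 members, with 1 bar per library coloured by siRNA (b1 and b2 are the batches). Slc30a4 and Slc6a6 were highest in siCdc73, and Slc38a2 was raised to between 8.33% and 16.5% in both siPaf1 and siCdc73.

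In all, 30 members had enough reads to compare their intronic and internal exon sites with the 3'-most exon. After siPaf1 this log2 ratio rose in 5 and fell in 1, which is 20% of them where 23% of all 1766 genes tested were called. After siCdc73 it rose in 7 and fell in 1, or 26.7% against 23.2% of all genes. Of the 7, Slc16a10 passed the threshold of 20 reads only through siPaf1 and siCdc73 libraries. Without the batch term the calls were 2 and 3 members, or 6.67% and 10% against 2.38% and 4.13% of all genes. Those 2 were Slc30a4 and Slc38a2, and Slc6a6 was the third after siCdc73. After siSki8 0 of 30 members were called, against 0.113% of all genes with the batch term, and the fit without it called 0% of all genes. At an unadjusted p under 0.05 that fit gave 6 members with siPaf1, 9 with siCdc73 and 2 with siSki8, where 20.3%, 20.1% and 1.87% of all genes passed. The members' median log2 ratio was 0.56 with siPaf1 (all genes tested, 0.71), 1.16 with siCdc73 (0.94) and 0.23 with siSki8 (-0.07).

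Summed over all members, reads at intronic and internal exon sites made up 1.071% and 0.8698% of member reads in siCtrl, 1.779% and 1.558% in siPaf1, 2.168% and 2.1% in siCdc73 and 1.109% in siSki8. The siCdc73 libraries were highest and the siPaf1 libraries were next, with no overlap with siCtrl. These sums follow a few members. In siCdc73 batch 1, Slc30a4, Slc38a2 and Slc6a6 gave 288, 219 and 74 of such reads, of 57205 member reads. In the other genes the same share was 2.476% and 2.132% in siCtrl and 2.398% in siSki8. It was 3.297% and 3.077% in siPaf1 and 3.103% and 2.874% in siCdc73. Such sites thus held a smaller share of member reads in every library, and the abundant members Slc25a20 and Slc25a39 had none listed.

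The exception in direction after siPaf1 was Slc38a10, a relative of Slc38a2 whose intronic site lies in intron 10 of 16. Its intronic share was 18.2% and 5.30% in siCtrl, 4.21% and 0.649% in siPaf1, 18% and 7.78% in siCdc73 and 1.20% in siSki8. The siPaf1 libraries lay below both siCtrl libraries, as did siSki8, although the 2 batches differed widely. The ratio fell, with a log2 change of -2.54 (SE 0.84, adjusted p = 0.015 with the batch term and 0.27 without) after siPaf1, a call lost without siCtrl replicate 1 (adjusted p = 0.11), without siCtrl replicate 2 (adjusted p = 0.087) and without siPaf1 replicate 2 (adjusted p = 0.30). The remaining calls, Slc35a1, Slc37a3, Slc16a10 and Slc17a9, were outside the rule for named genes or had few reads, and are named because they complete the counts. Slc35a1, the Golgi transporter of CMP-sialic acid, rose after siPaf1 by 4.90 (SE 1.68, adjusted p = 0.020 with the batch term and 0.16 without) on counts of 0 of 21 and 0 of 93 in siCtrl, 2 of 19 and 17 of 98 in siPaf1, 0 of 14 and 9 of 59 in siCdc73 and 0 of 59 in siSki8. The call was lost without siCtrl replicate 1, siCtrl replicate 2, siPaf1 replicate 1 or siPaf1 replicate 2 (adjusted p = 0.053, 0.66 at a value of 2.75, 0.067 and 0.17). Slc37a3 rose after siCdc73 by 1.69 (SE 0.61, adjusted p = 0.029 with the batch term and 0.29 without), a call lost without siCtrl replicate 1, siCtrl replicate 2 or siCdc73 replicate 2 (adjusted p = 0.10, 0.25 and 0.52 at a value of 1.05). Slc16a10 rose by 6.74 (SE 2.20, adjusted p = 0.014 with the batch term and 0.097 without), lost without siCtrl replicate 2 or siCdc73 replicate 2. It averaged 15.33 reads over siCtrl and siSki8 and 51.5 in siCdc73. The reads that the ratio tests thus also carried it past the threshold, and its value is a description. Slc17a9 fell, with a log2 change of -5.84 (SE 2.22, adjusted p = 0.039 with the batch term and 0.15 without), lost without siCtrl replicate 1, siCtrl replicate 2, siCdc73 replicate 1 or siCdc73 replicate 2 (adjusted p = 0.18, 0.40, 0.063 and 0.47).

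Proximal and distal sites within the 3'-most exon could be compared in 72 members. Site types are those given with the counts. Of 302 such sites of members with at least 5% of reads, 244 lay in an annotated last exon. The distal sites of Slc4a1ap, Slc25a30 and Slc25a10 lay past the annotated end of the gene. After siPaf1 6 members moved toward the proximal site and 1 toward the distal site, or 9.72% where 6.79% of all 4567 genes were called. After siCdc73 3 moved toward the proximal site, or 4.17% against 4.29% of all genes, and after siSki8 0 did, against 0.307%. Without the batch term edgeR called 0 of 72 in every comparison, while 8, 4 and 1 members had an unadjusted p under 0.05 (5.01%, 4.2% and 1.27% of all genes). The members' median log2 ratio of proximal to distal reads was 0.09 with siPaf1 (all genes tested, 0.30), 0.30 with siCdc73 (0.40) and 0.36 with siSki8 (0.40).

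Beside Slc30a4, the mitochondrial carrier Slc25a30 shifted toward its proximal site after both knockdowns. The proximal share was 4.35% and 0.483% in siCtrl, 9.28% and 16.8% in siPaf1, 35% and 23.1% in siCdc73 and 3.03% in siSki8, with siCtrl and siSki8 below siPaf1 and siCdc73. The log2 ratio rose by 3.13 (SE 0.92, adjusted p = 0.020 with the batch term and 0.96 without) after siPaf1 and by 4.45 (SE 1.00, adjusted p = 0.0012 with the batch term and 1.0 without) after siCdc73. The siPaf1 call was lost without siCtrl replicate 2 (adjusted p = 0.93 at a value of 1.44) and without siPaf1 replicate 2 (adjusted p = 0.78 at a value of 1.68), and the siCdc73 call without siCtrl replicate 2 (adjusted p = 0.72 at a value of 2.77) and without siCdc73 replicate 1 (adjusted p = 0.053). Slc26a2, a sulfate transporter, had a proximal share of 41.2% and 30.2% in siCtrl, 71.6% and 72.7% in siPaf1, 72.9% and 44.3% in siCdc73 and 24.3% in siSki8 and rose after siPaf1 by 2.23 (SE 0.67, adjusted p = 0.023 with the batch term and 0.96 without). In this gene siCdc73 batch 1 matched the siPaf1 libraries and batch 2 lay nearer siCtrl. The siPaf1 call was lost without siCtrl replicate 1 (adjusted p = 0.25), without siCtrl replicate 2 (adjusted p = 0.47) and without siPaf1 replicate 2 (adjusted p = 0.60).

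Slc4a1ap, which encodes a kidney anion exchanger adaptor protein and no transporter, rose after siPaf1 by 1.83 (SE 0.52, adjusted p = 0.014 with the batch term and 0.96 without) from proximal shares of 57.8% and 69.8% in siCtrl, 85.7% and 87.3% in siPaf1, 67.9% and 85.5% in siCdc73 and 90.3% in siSki8. Its siSki8 library was the highest of the 7. The call was lost without siCtrl replicate 1 (adjusted p = 0.18), without siCtrl replicate 2 (adjusted p = 0.47), without siPaf1 replicate 1 (adjusted p = 0.21) and without siPaf1 replicate 2 (adjusted p = 0.051). Slc25a10, the mitochondrial dicarboxylate carrier, went the other way after siPaf1, with proximal shares of 45.6% and 70.5% in siCtrl, 14.9% and 18.8% in siPaf1, 64% and 65.4% in siCdc73 and 54.8% in siSki8. Both siPaf1 libraries lay below the other 5. The ratio fell, with a log2 change of -2.78 (SE 0.87, adjusted p = 0.032 with the batch term and 0.96 without), and the call was lost without siCtrl replicate 1 (adjusted p = 0.13), without siCtrl replicate 2 (adjusted p = 0.75), without siPaf1 replicate 1 (adjusted p = 0.072) and without siPaf1 replicate 2 (adjusted p = 0.51). The other 2 members called after siPaf1 were Slc30a1 at 5.40 (SE 1.40, adjusted p = 0.0060 with the batch term and 0.57 without) and Slc10a7 at 3.42 (SE 1.05, adjusted p = 0.027 with the batch term and 0.94 without), both outside the rule for named genes. The first was lost without siCtrl replicate 1, siCtrl replicate 2 or siPaf1 replicate 2 (adjusted p = 0.082, 0.28 and 0.21), and the second without siCtrl replicate 1, siCtrl replicate 2, siPaf1 replicate 1 or siPaf1 replicate 2 (adjusted p = 0.26, 0.52, 0.14 and 0.20).

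For Slc5a3, which carries myo-inositol with sodium, the site counted as proximal lies before the start of the coding region in exon 2 of 2, so a transcript ending there holds no codon of the gene. It is shown because the 2 knockdowns differed at it.
Slc5a3 first site, chr16:92077238-92077267 (plus strand): ctaataagtaAATAAAaagctggacgcttc
The window holds AATAAA. Reads at this site numbered 9 and 8 in siCtrl, 13 and 4 in siPaf1, 68 and 189 in siCdc73 and 4 in siSki8, highest in both siCdc73 libraries. The log2 ratio of this site to the distal site was -2.32 (SE 0.80, adjusted p = 0.054 with the batch term and 0.98 without) after siPaf1 and 1.14 (SE 0.67, adjusted p = 0.44 with the batch term and 1.0 without) after siCdc73, and the direct difference, siPaf1 minus siCdc73, was -3.46 (SE 0.67, adjusted p = 1.9e-04 with the batch term and 1.0 without). This call was lost without siPaf1 replicate 2, where the difference was -1.49 (adjusted p = 0.73), and without siCdc73 replicate 2, where it was -2.30 (adjusted p = 0.42), and the difference was -5.74 without siPaf1 replicate 1. The gene overlaps Mrps6 and Gm16309 on the same strand, so reads of this site cannot be told apart from transcripts of those genes.

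Antisense reads near the promoter were numerous enough to test in 14 members. One member, Slc25a37, which imports iron into mitochondria, rose after siCdc73, or 7.14% of the members where 3.34% of all 867 genes were called. After siPaf1 and siSki8 0 of 14 were called, against 3.11% and 0.231% of all genes. Without the batch term edgeR called 0 of 14 in every comparison, while 1, 2 and 1 members had an unadjusted p under 0.05 (10.7%, 11.8% and 0.923% of all genes). Slc25a37 had antisense reads of 1 and 0 in siCtrl, 9 and 6 in siPaf1, 7 and 41 in siCdc73 and 0 in siSki8, so the siCdc73 total came mainly from batch 2. Its log2 ratio of antisense to sense reads rose by 4.93 (SE 1.38, adjusted p = 0.017 with the batch term and 0.21 without), a call lost without siCtrl replicate 1 (adjusted p = 0.23), without siCtrl replicate 2 (adjusted p = 0.59), without siCdc73 replicate 1 (adjusted p = 0.40) and without siCdc73 replicate 2 (adjusted p = 0.57). The 14 members had a median log2 ratio of 1.09 with siPaf1 (all genes tested, 0.43), 1.88 with siCdc73 (0.92) and 0.27 with siSki8 (-0.09).

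Turning to levels, mean abundance in 3'READS ran from 1.98 to 1280.0 CPM with a median of 15.7, and 8 members held 50.69% of the summed CPM of all members. These were Slc25a20, the carnitine and acylcarnitine carrier of mitochondria, at 1280.0 CPM, the zinc transporter Slc39a7 of the endoplasmic reticulum at 1022 CPM, then Slc25a39, the heme transporter Slc48a1, the ADP/ATP carrier Slc25a4, the choline transporter Slc44a2, the CD98 heavy chain Slc3a2 and the anion exchanger Slc4a2 at 259 CPM. By RPKM, which is per length of transcript, the phosphate carrier Slc25a3 led RNA-seq with 360.5 and 866.2 in siCtrl, followed by the ADP/ATP carrier Slc25a5 with 221.5 and 254.1. Next came the endoplasmic reticulum transporter Slc35b1 with 126.4 and 246.5 RPKM and Slc30a4 with 172.5 and 94.96, so the order of these 2 differed between batches. Slc25a5 was abundant in RNA-seq but had at most 5.7 CPM in 3'READS, and since it has near-identical pseudogenes its values are uncertain.

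After siPaf1 13 members rose and 19 fell in 3'READS, together 20.1% of the 159, where 18.8% of all 12579 genes were called. Leaving out the 9 members that passed because of siPaf1 batch 2, 10 rose and 19 fell of 150. Since 3'READS reads chose the members, 16 of the 159 averaged under 20 reads over siCtrl and siSki8 and passed through the siPaf1 or siCdc73 libraries, and 5 of the 13 that rose were among them: Slc16a7, Slc23a3, Slc2a5, Slc6a4 and Slc9a10. In RNA-seq, which listed 81 members and tested 80, 11 rose and 19 fell, or 37.5% against 32.5% of all 6521 genes, and 9 rose and 19 fell of the 75 tested members that passed without siPaf1 batch 2. The median log2 change of the members was -0.19 in 3'READS and -0.30 in RNA-seq, beside 0.08 and 0.02 over all genes tested and 0.01 and -0.01 over genes with at least 20 3'READS reads. After siCdc73 19 rose and 14 fell in 3'READS, or 20.8% against 22.5% of all genes, and 18 and 14 of the 150. Of the 19, Slc11a1, Slc23a3, Slc40a1 and Slc6a4 averaged under 20 reads over siCtrl and siSki8, and of the 14, Slc16a13, Slc16a6 and Slc35d2 averaged under 20 in siCdc73. In RNA-seq 17 rose and 16 fell, or 41.2% against 39.9%, and 15 and 16 of the 75. The medians were then -0.05 in 3'READS and 0.14 in RNA-seq, beside -0.02 and -0.02 over all genes tested.

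**Figure D3:**
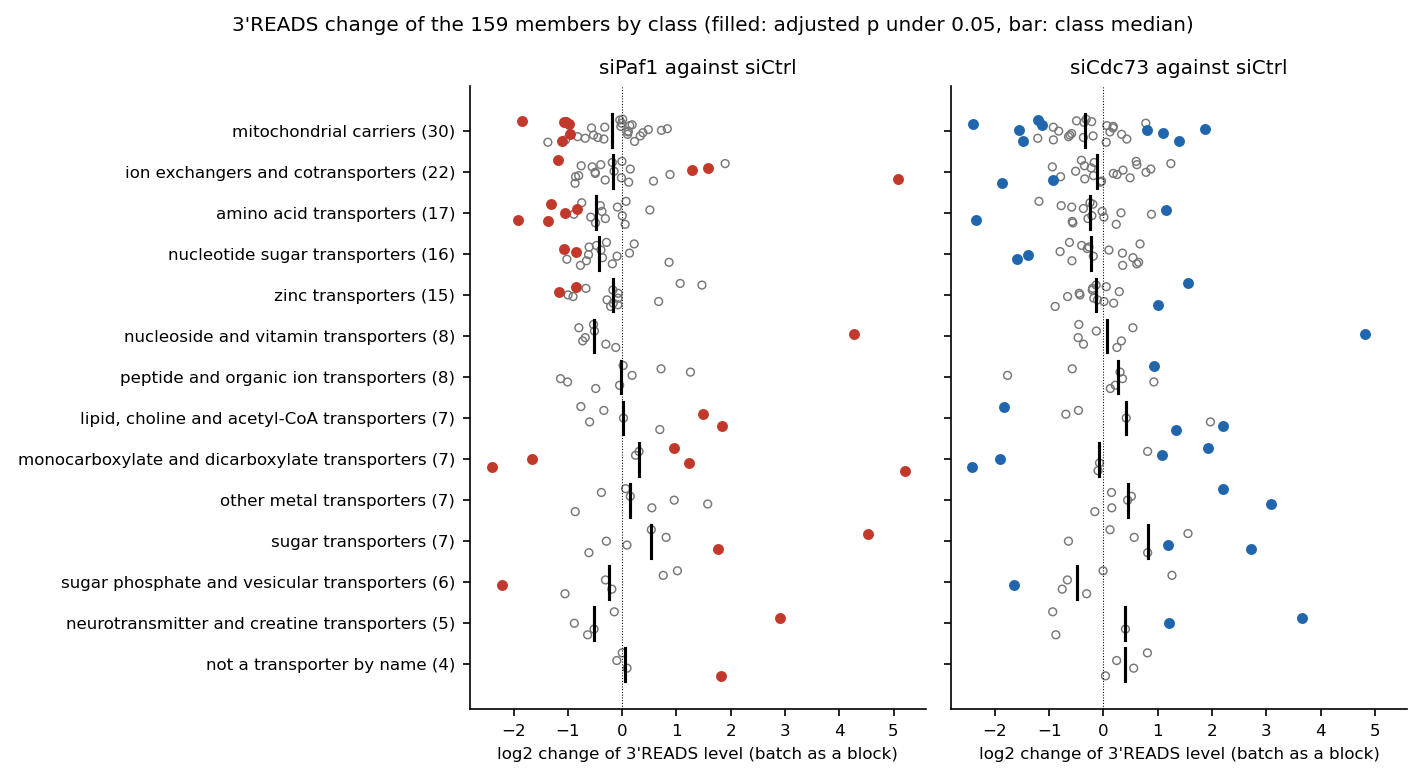
Log2 change of each member in 3'READS (x axis, fit with the batch term) by transporter class (y axis), for siPaf1 and siCdc73 against siCtrl. Filled points passed an adjusted p of 0.05 and the bar marks the class median, which for amino acid transporters was -0.49 after siPaf1 and -0.25 after siCdc73.

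Of 80 members tested in both assays, 12 were called in both after siPaf1 (15%, where 14% of all 5610 genes tested in both were), and all moved the same way, as did 99.6% of all genes called in both. The 4 that rose were Slc23a3, Slc26a2, Slc6a4 and Slc9a3r2, and the 8 that fell were Slc16a6, Slc1a5, Slc25a12, Slc25a13, Slc30a4, Slc35a5, Slc37a2 and Slc38a1. After siCdc73 16 were called in both (20% against 19.4% of all genes), again all in the same direction, as were 99.5% of all genes called in both. Those that rose were Slc15a4, Slc23a3, Slc30a1, Slc38a10, Slc39a7, Slc40a1, Slc44a2 and Slc6a4, and those that fell were Slc16a6, Slc25a10, Slc25a15, Slc35b4, Slc35d2, Slc37a2, Slc9a5 and Slc9a9. Of the genes named here, Slc23a3 and Slc6a4 after both knockdowns and Slc40a1 after siCdc73 passed the threshold only through siPaf1 and siCdc73 libraries. Slc16a6 and Slc35d2, which fell after siCdc73, averaged under 20 reads there. Their 3'READS calls are thus a description, and the counts of calls in both assays were not redone without them. The log2 changes of the 2 assays had the same sign in 67 of 80 members (83.8%) after each of siPaf1 and siCdc73, against 79.2% and 82.7% of all genes.

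**Figure D4:**
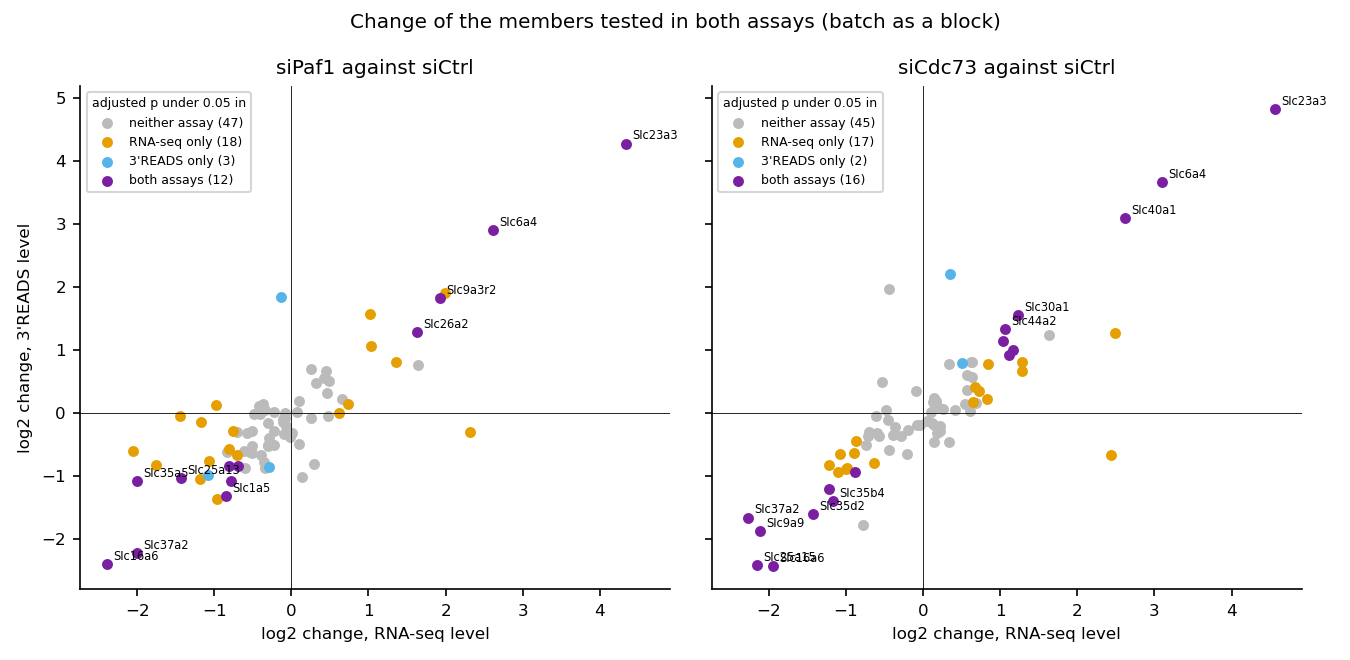
Log2 change in RNA-seq (x axis) against log2 change in 3'READS (y axis) for the 80 members tested in both, in the siPaf1 and the siCdc73 comparison, coloured by whether neither, 1 or both assays passed an adjusted p of 0.05. Slc23a3 lies at the upper right in both panels, at 4.34 in RNA-seq and 4.27 in 3'READS after siPaf1 and 4.56 and 4.82 after siCdc73.

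Slc23a3, a member of the ascorbate transporter family, was among the members that passed the threshold only through the siPaf1 and siCdc73 libraries, so its 3'READS levels are a description and RNA-seq gives its test. In 3'READS it had 1.62 and 0.204 CPM in siCtrl, 27.1 and 15.5 in siPaf1, 32.2 and 21.3 in siCdc73 and 1.08 in siSki8, and in RNA-seq it had 1.72 and 1.03 CPM in siCtrl, 25.9 and 49 in siPaf1, 37.2 and 36.1 in siCdc73 and 1.23 in siSki8. The siPaf1 and siCdc73 libraries exceeded siCtrl and siSki8 without overlap in both assays. In RNA-seq the log2 change was 4.34 (SE 0.39, adjusted p = 2.0e-09 with the batch term and 0.075 without) after siPaf1 and 4.56 (SE 0.39, adjusted p = 6.3e-10 with the batch term and 0.071 without) after siCdc73, and no single library decided either call. The gene 1810031K17Rik ends 663 bases before Slc23a3 on the same strand and had 101.2 and 209.7 CPM of 3'READS in siCtrl, 138.1 and 208.9 in siPaf1, 184.1 and 359.6 in siCdc73 and 136.4 in siSki8, and its part in the Slc23a3 values was not tested. Among the other 7 vitamin and nucleoside transporters 0 were called in 3'READS after siPaf1 or siCdc73.

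**Figure D5:**
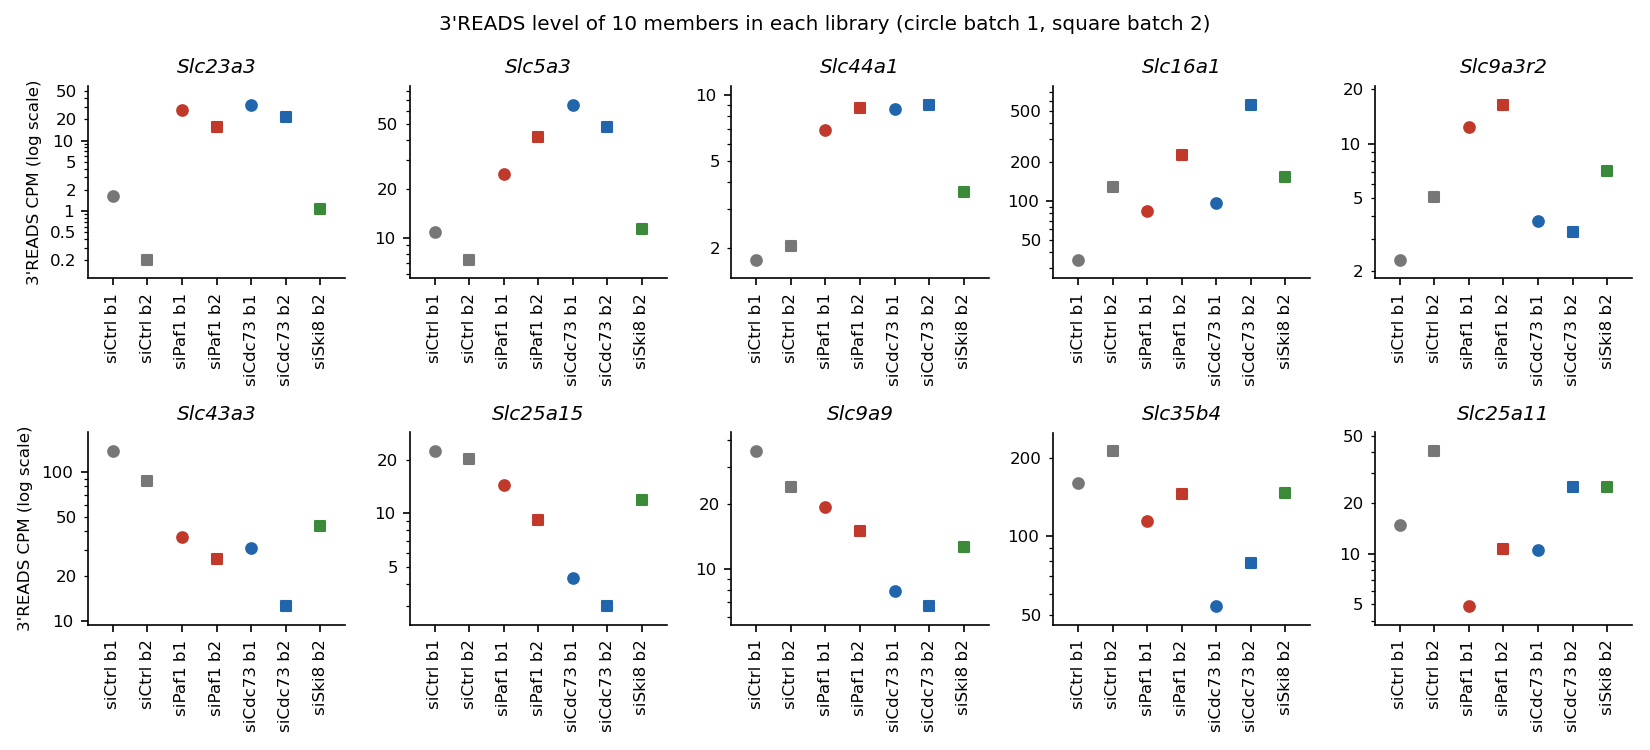
Level of 10 members in 3'READS (CPM, log axis, y axis) with 1 point per library (x axis), coloured by siRNA, circles for batch 1 and squares for batch 2. Slc23a3 ran from 15.5 to 32.2 CPM in siPaf1 and siCdc73 against at most 1.62 in siCtrl and siSki8, and Slc43a3 lay below siCtrl in all other libraries.

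Among amino acid transporters 5 of 17 fell and 0 rose in 3'READS after siPaf1, where 18.8% of all genes were called, and the class median was -0.49. After siCdc73 1 rose and 1 fell, where 22.5% of all genes were called, with a median of -0.25. Slc43a3, counted in this class by its family although it is known to carry purine nucleobases, had 137 and 87.1 CPM in siCtrl, 36.5 and 26 in siPaf1, 30.9 and 12.6 in siCdc73 and 43 in siSki8. Both siCtrl libraries lay above all others. It fell, with a log2 change of -1.91 (SE 0.29, adjusted p = 3.9e-04 with the batch term and 0.29 without) after siPaf1 and of -2.35 (SE 0.30, adjusted p = 1.2e-04 with the batch term and 0.19 without) after siCdc73, with no library deciding either call. Slc7a1, the cationic amino acid transporter that takes up arginine and lysine, had 36.1 and 37.2 CPM in siCtrl, 14.1 and 16 in siPaf1, 25.6 and 20.6 in siCdc73 and 40.3 in siSki8, lowest in the 2 siPaf1 libraries, and fell after siPaf1, with a log2 change of -1.37 (SE 0.29, adjusted p = 0.0040 with the batch term and 0.25 without).

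Slc1a5, the glutamine transporter ASCT2, had 30.6 and 25.8 CPM in siCtrl, 17.9 and 8.13 in siPaf1, 33.9 and 15.9 in siCdc73 and 24.6 in siSki8 in 3'READS and 79.3 and 70.5 CPM in siCtrl, 48 and 35.4 in siPaf1, 65.8 and 63.3 in siCdc73 and 60.8 in siSki8 in RNA-seq. The siPaf1 libraries lay below siCtrl in both assays. In 3'READS it fell after siPaf1, with a log2 change of -1.31 (SE 0.31, adjusted p = 0.0084 with the batch term and 0.45 without), a call lost without siCtrl replicate 2 (adjusted p = 0.25), and in RNA-seq it fell, with a log2 change of -0.85 (SE 0.25, adjusted p = 0.010 with the batch term and 0.25 without), lost without siCtrl replicate 1 or siCtrl replicate 2 (adjusted p = 0.098 and 0.10). Slc38a1 and Slc38a6, both of the Slc38 family, also fell after siPaf1. The heavy chain Slc3a2 and its partner Slc7a5, which together exchange large neutral amino acids, were at -0.58 (SE 0.28, adjusted p = 0.16 with the batch term and 0.65 without) and -0.49 (SE 0.28, adjusted p = 0.23 with the batch term and 0.58 without) after siPaf1. Of the 9 amino acid transporters listed as linked to the stress factor ATF4, 8 were tested in 3'READS, 2 of them fell after siPaf1 (Slc7a1 and Slc1a5), where 18.8% of all genes were called, 0 lay above 0, where 53.57% of all genes did, and their median was -0.66. After siCdc73 0 of these 8 were called, where 22.5% of all genes were, and their median was -0.41. The list was written with earlier results of these data known, so its values are a description.

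Mitochondrial carriers, the largest family with 30 members, had 6 that fell and 0 that rose in 3'READS after siPaf1, with a median of -0.18, where 18.8% of all genes were called. In RNA-seq 6 of the 12 tested fell and 1 rose, with a median of -0.79, where 32.5% of all genes were called. After siCdc73 4 rose and 5 fell in 3'READS (22.5% of all genes called), and 4 fell and 0 rose in RNA-seq (39.9%). Slc25a11, which exchanges 2-oxoglutarate for malate, had 14.8 and 40.5 CPM in siCtrl, 4.86 and 10.7 in siPaf1, 10.6 and 25 in siCdc73 and 24.7 in siSki8. Within each batch it was lowest in siPaf1, and it fell there, with a log2 change of -1.84 (SE 0.31, adjusted p = 8.2e-04 with the batch term and 0.30 without). The value after siCdc73 was -0.50 (SE 0.30, adjusted p = 0.26 with the batch term and 0.75 without).

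Slc25a46, a mitochondrial outer membrane protein involved in mitochondrial dynamics, had 69.5 and 113 CPM in siCtrl, 36 and 53.4 in siPaf1, 25.3 and 35.3 in siCdc73 and 56.6 in siSki8, with siCtrl highest in each batch. It fell, with a log2 change of -1.11 (SE 0.27, adjusted p = 0.0091 with the batch term and 0.31 without) after siPaf1, a call lost without siCtrl replicate 2 (adjusted p = 0.12), and of -1.47 (SE 0.27, adjusted p = 0.0015 with the batch term and 0.19 without) after siCdc73. Slc25a15, the ornithine carrier of the urea cycle, had 22.3 and 20.3 CPM in siCtrl, 14.3 and 9.18 in siPaf1, 4.34 and 3 in siCdc73 and 11.8 in siSki8, lowest in siCdc73, and fell there, with a log2 change of -2.41 (SE 0.35, adjusted p = 2.8e-04 with the batch term and 0.16 without). Slc25a26, which imports S-adenosylmethionine, had 3.38 and 5.71 CPM in siCtrl, 7.16 and 10.3 in siPaf1, 11.7 and 20.4 in siCdc73 and 6.87 in siSki8, was highest in siCdc73 within each batch and rose there by 1.87 (SE 0.36, adjusted p = 0.0019 with the batch term and 0.16 without). In RNA-seq Slc25a10 had 60.4 and 62.6 CPM in siCtrl, 27.8 and 17.5 in siPaf1, 26.4 and 20.4 in siCdc73 and 62.6 in siSki8. It was lower in all 4 siPaf1 and siCdc73 libraries than in siCtrl and siSki8, with log2 changes of -1.44 (SE 0.28, adjusted p = 1.5e-04 with the batch term and 0.13 without) and -1.22 (SE 0.27, adjusted p = 6.6e-04 with the batch term and 0.13 without). The second of these calls was lost without siCtrl replicate 2, at a value of -0.97. In 3'READS Slc25a10 had 14.35 and 13.46 CPM in siCtrl, 11.77 and 16.94 in siPaf1, 6.79 and 4.53 in siCdc73 and 17.6 in siSki8. There siPaf1 overlapped siCtrl, and only the fall after siCdc73 was called.

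Sugar transporters had 2 of 7 members that rose and 0 that fell in 3'READS after each of siPaf1 and siCdc73, where 18.8% and 22.5% of all genes were called. The class medians were 0.54 and 0.81. The class was set by family, so it includes Slc5a3, which carries myo-inositol, and Slc5a6, whose substrates differ from sugars. One of the 2 after siPaf1 was the fructose transporter Slc2a5, whose 256 reads in siPaf1 batch 2 compare with at most 11 in any other library, and without this gene 1 of 6 rose with a class median of 0.31. Slc5a3 had 10.8 and 7.34 CPM in siCtrl, 24.6 and 41.9 in siPaf1, 65.8 and 48.1 in siCdc73 and 11.3 in siSki8 summed over its sites. These sums include its first site, whose reads were highest in siCdc73 and cannot be told apart from transcripts of Mrps6 and Gm16309. The level of Slc5a3 without that site was not tested. All 4 siPaf1 and siCdc73 libraries lay above the other 3, with siCdc73 highest. It rose by 1.77 (SE 0.35, adjusted p = 0.0028 with the batch term and 0.26 without) after siPaf1, a call lost without siCtrl replicate 2 (adjusted p = 0.058) with a value of 1.08 without siPaf1 replicate 2, and by 2.71 (SE 0.36, adjusted p = 1.4e-04 with the batch term and 0.16 without) after siCdc73.

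Monocarboxylate transporters moved in both directions. Slc16a1, the lactate and pyruvate transporter MCT1, had 34.8 and 129 CPM in siCtrl, 83.2 and 228 in siPaf1, 96.2 and 559 in siCdc73 and 154 in siSki8. Batch 2 was higher than batch 1 in each of the 3 repeated groups, and within each batch siCdc73 was highest and siCtrl lowest. It rose by 0.95 (SE 0.30, adjusted p = 0.037 with the batch term and 0.73 without) after siPaf1 and by 1.92 (SE 0.31, adjusted p = 5.6e-04 with the batch term and 0.35 without) after siCdc73. The siPaf1 call was lost without siCtrl replicate 1 (adjusted p = 0.099), without siCtrl replicate 2 (adjusted p = 0.27) and without siPaf1 replicate 1 (adjusted p = 0.19 at a value of 0.56). Slc16a6, a relative of MCT1, had 10.3 and 10.2 CPM in siCtrl, 1.41 and 2.39 in siPaf1, 1.89 and 1.46 in siCdc73 and 2.65 in siSki8 in 3'READS, with both siCtrl libraries above all others. Its siCdc73 libraries averaged under 20 reads, so its test is given from RNA-seq. RNA-seq counts were also low, at 51 and 19 in siCtrl, 8 and 1 in siPaf1, 14 and 0 in siCdc73 and 1 in siSki8. There it fell after siPaf1, with a log2 change of -2.39 (SE 0.67, adjusted p = 0.0065 with the batch term and 0.32 without). The change after siCdc73 was -1.95 (SE 0.63, adjusted p = 0.015 with the batch term and 0.34 without). The siPaf1 call was lost without siCtrl replicate 2 or siPaf1 replicate 1 (adjusted p = 0.073 and 0.11) and the siCdc73 call was lost without siCtrl replicate 1, siCtrl replicate 2 or siCdc73 replicate 2 (adjusted p = 0.059, 0.12 and 0.15), with a value of -3.29 without siCdc73 replicate 1. Slc16a7 was also called higher after siPaf1, on 336 reads in siPaf1 batch 2 and at most 2 in any other library.

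The choline transporter Slc44a1 had 1.76 and 2.04 CPM in siCtrl, 6.91 and 8.73 in siPaf1, 8.68 and 9.06 in siCdc73 and 3.62 in siSki8 in 3'READS, and all 4 siPaf1 and siCdc73 libraries lay above siCtrl and siSki8. It rose by 1.83 (SE 0.42, adjusted p = 0.0065 with the batch term and 0.21 without) after siPaf1, a call lost without siCtrl replicate 2 (adjusted p = 0.081), and by 2.20 (SE 0.42, adjusted p = 0.0019 with the batch term and 0.16 without) after siCdc73. In RNA-seq, where it had 126 and 66.8 CPM in siCtrl, 138 and 47.2 in siPaf1, 118 and 89.3 in siCdc73 and 60.5 in siSki8, the groups overlapped and the log2 change was -0.14 (SE 0.26, adjusted p = 0.72 with the batch term and 0.96 without) and 0.35 (SE 0.26, adjusted p = 0.29 with the batch term and 0.79 without). The related Slc44a2 had 301 and 135 CPM in siCtrl, 535 and 229 in siPaf1, 639 and 352 in siCdc73 and 124 in siSki8 in 3'READS and rose after siCdc73 by 1.33 (SE 0.27, adjusted p = 0.0027 with the batch term and 0.46 without), with siCdc73 highest in each batch. This call was lost without siCtrl replicate 2 (adjusted p = 0.054). Slc33a1, which brings acetyl-CoA into the endoplasmic reticulum, had 89 and 70.5 CPM in siCtrl, 25.4 and 13.6 in siPaf1, 64.9 and 41.1 in siCdc73 and 53.2 in siSki8 in RNA-seq, lowest in both siPaf1 libraries, and fell, with a log2 change of -2.05 (SE 0.27, adjusted p = 9.4e-07 with the batch term and 0.086 without). It had at most 6.28 CPM in 3'READS. There it averaged 12.5 reads in siCtrl, 6 in siPaf1 and 54 in siCdc73, not scaled to library size. In that assay siCdc73 thus lay above siCtrl, unlike in RNA-seq. With 15 reads on average over siCtrl and siSki8, Slc33a1 passed the threshold through siCdc73.

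Among metal transporters, the 15 zinc transporters included 2 that fell after siPaf1, Slc30a4 and Slc30a7, and 2 that rose after siCdc73, Slc39a7 and Slc30a1, in 3'READS, where 18.8% and 22.5% of all genes were called. Slc39a7 had 795 and 784 CPM in siCtrl, 852 and 756 in siPaf1, 1752 and 1241 in siCdc73 and 972 in siSki8 in 3'READS and 359.5 and 319.8 CPM in siCtrl, 423 and 389.7 in siPaf1, 615 and 739 in siCdc73 and 380.5 in siSki8 in RNA-seq. The siCdc73 libraries were the highest in both assays. It rose after siCdc73 by 1.00 (SE 0.26, adjusted p = 0.013 with the batch term and 0.32 without) in 3'READS and by 1.17 (SE 0.23, adjusted p = 1.4e-04 with the batch term and 0.13 without) in RNA-seq. The first call was lost without siCtrl replicate 1 (adjusted p = 0.18), without siCtrl replicate 2 (adjusted p = 0.086) and without siCdc73 replicate 1 (adjusted p = 0.17), and the second without siCdc73 replicate 2 (adjusted p = 0.059). Slc40a1, the iron exporter ferroportin, had 6.89 and 4.80 CPM in siCtrl, 14.5 and 10.0 in siPaf1, 34.3 and 32.2 in siCdc73 and 2.94 in siSki8 in RNA-seq. It rose by 1.02 (SE 0.35, adjusted p = 0.024 with the batch term and 0.26 without) after siPaf1 and by 2.62 (SE 0.34, adjusted p = 4.6e-07 with the batch term and 0.071 without) after siCdc73, with siCdc73 above siPaf1 and both above siCtrl and siSki8. The siPaf1 call was lost without siCtrl replicate 1 (adjusted p = 0.095), without siCtrl replicate 2 (adjusted p = 0.21) and without siPaf1 replicate 1 (adjusted p = 0.14).

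The Slc35 family, classed here as nucleotide sugar transporters, had 2 of 16 that fell and 0 that rose in 3'READS after each of siPaf1 and siCdc73, where 18.8% and 22.5% of all genes were called. The class was set by family and also holds the endoplasmic reticulum transporter Slc35b1. Slc35b4 had 160.0 and 212 CPM in siCtrl, 114 and 145 in siPaf1, 53.8 and 78.9 in siCdc73 and 146 in siSki8, lowest in the siCdc73 libraries, and fell there, with a log2 change of -1.40 (SE 0.27, adjusted p = 0.0019 with the batch term and 0.19 without). Slc35a5 had 37.7 and 29.3 CPM in siCtrl, 11.7 and 5.01 in siPaf1, 25.8 and 12.3 in siCdc73 and 16.3 in siSki8 in RNA-seq, where both siPaf1 libraries lay below siCtrl, and it fell, with a log2 change of -2.01 (SE 0.33, adjusted p = 1.9e-05 with the batch term and 0.13 without). Slc37a2, an exchanger of glucose 6-phosphate in the endoplasmic reticulum, had 14.7 and 12.5 CPM in siCtrl, 4.07 and 2.15 in siPaf1, 2.85 and 1.68 in siCdc73 and 4.90 in siSki8 in RNA-seq and fell, with a log2 change of -2.01 (SE 0.45, adjusted p = 8.3e-04 with the batch term and 0.13 without) after siPaf1 and of -2.27 (SE 0.45, adjusted p = 2.1e-04 with the batch term and 0.088 without) after siCdc73. Its siCtrl libraries were the highest of the 7 in RNA-seq.

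Of 22 ion exchangers and cotransporters, 3 rose and 1 fell in 3'READS after siPaf1, and 0 rose and 2 fell after siCdc73, where 18.8% and 22.5% of all genes were called. One of the 3 was Slc9a10, a sperm-specific sodium and proton exchanger, with 253 reads in siPaf1 batch 2 and at most 2 in any other library, and without it and Slc12a8 2 of 20 rose and 1 fell. Slc26a2 had 51 and 25.4 CPM in siCtrl, 104 and 119 in siPaf1, 70.7 and 31.1 in siCdc73 and 37.1 in siSki8 in RNA-seq, highest in both siPaf1 libraries, and rose there by 1.63 (SE 0.29, adjusted p = 5.3e-05 with the batch term and 0.17 without), a value of 0.98 without siPaf1 replicate 2. In 3'READS the rise was 1.29 (SE 0.32, adjusted p = 0.012 with the batch term and 0.30 without), lost without siCtrl replicate 2 (adjusted p = 0.24). Slc9a9, an endosomal sodium and proton exchanger, had 35.5 and 24.1 CPM in siCtrl, 19.4 and 15.1 in siPaf1, 7.92 and 6.69 in siCdc73 and 12.7 in siSki8 in 3'READS and 45.9 and 33.9 CPM in siCtrl, 27.6 and 24.7 in siPaf1, 8.86 and 7 in siCdc73 and 9.68 in siSki8 in RNA-seq. The siCdc73 libraries were the lowest in both assays. It fell after siCdc73, with a log2 change of -1.88 (SE 0.31, adjusted p = 7.5e-04 with the batch term and 0.16 without) in 3'READS and of -2.11 (SE 0.31, adjusted p = 3.3e-06 with the batch term and 0.071 without) in RNA-seq, with no library deciding either call.

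Slc6a4, the serotonin transporter, had 0.542 and 0.408 CPM in siCtrl, 3.20 and 7.54 in siPaf1, 5.28 and 10.6 in siCdc73 and 1.57 in siSki8 in 3'READS, and the 4 siPaf1 and siCdc73 libraries, through which alone it passed the threshold, exceeded the other 3. Its RNA-seq counts were low, at 1 and 0 in siCtrl, 8 and 12 in siPaf1, 16 and 14 in siCdc73 and 0 in siSki8. In RNA-seq it rose by 2.62 (SE 0.70, adjusted p = 0.0046 with the batch term and 0.14 without) after siPaf1. The rise after siCdc73 was 3.1 (SE 0.70, adjusted p = 7.1e-04 with the batch term and 0.097 without). The siPaf1 call was lost without siCtrl replicate 2 (adjusted p = 0.17) and the siCdc73 call was lost without siCtrl replicate 2 (adjusted p = 0.054). It lies outside the rule for named genes and was chosen after its values were seen. Slc9a3r2 (NHERF2), a scaffold protein that binds the exchanger NHE3 and is no transporter, had 2.30 and 5.10 CPM in siCtrl, 12.3 and 16.3 in siPaf1, 3.77 and 3.28 in siCdc73 and 7.11 in siSki8 in 3'READS and 16.4 and 8.57 CPM in siCtrl, 48.9 and 46.5 in siPaf1, 18.8 and 14.8 in siCdc73 and 11.8 in siSki8 in RNA-seq. Both siPaf1 libraries were above every other library in each assay. It rose after siPaf1 by 1.82 (SE 0.41, adjusted p = 0.0059 with the batch term and 0.23 without) in 3'READS and by 1.92 (SE 0.30, adjusted p = 1.2e-05 with the batch term and 0.10 without) in RNA-seq. The 3'READS call was lost without siCtrl replicate 1 (adjusted p = 0.064). Slc9a3r1 (NHERF1) was at 0.09 (SE 0.34, adjusted p = 0.88 with the batch term and 0.98 without) after siPaf1 in 3'READS.

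With its single library, siSki8 was compared with both siCtrl libraries, and its spread was taken from the other groups. In 3'READS 0 of 159 members were called, against 0.151% of all genes, while 22 had an unadjusted p under 0.05 with the batch term (11.6% of all genes) and DESeq2 with the batch term called 5 (1.58% of all genes). In RNA-seq 2 rose and 2 fell, or 5% against 5.41% of all genes. Slc27a1, which takes up long-chain fatty acids, had 471 and 211 CPM in siCtrl, 457 and 192 in siPaf1, 457 and 271 in siCdc73 and 71.2 in siSki8, and its siSki8 library was the lowest of the 7. It fell, with a log2 change of -1.36 (SE 0.31, adjusted p = 0.0091 with the batch term and 0.78 without), and the call held with any single siCtrl, siPaf1 or siCdc73 library left out. The call rests on the single siSki8 library, which could not be left out. Slc9a9 fell, with a log2 change of -1.58 (SE 0.39, adjusted p = 0.015 with the batch term and 0.78 without), a call lost without siCtrl replicate 1 (adjusted p = 0.056) and without siCtrl replicate 2 (adjusted p = 0.093). The zinc transporter Slc39a6 rose by 1.06 (SE 0.28, adjusted p = 0.023 with the batch term and 0.82 without) and the folate carrier Slc19a1 by 1.21 (SE 0.35, adjusted p = 0.041 with the batch term and 0.78 without). The first of these was lost without siCtrl replicate 1 (adjusted p = 0.16), without siCtrl replicate 2 (adjusted p = 0.092), without siCdc73 replicate 1 (adjusted p = 0.096) and without siCdc73 replicate 2 (adjusted p = 0.092), and the second without siCtrl replicate 1 (adjusted p = 0.23), without siCtrl replicate 2 (adjusted p = 0.13), without siCdc73 replicate 1 (adjusted p = 0.088) and without siCdc73 replicate 2 (adjusted p = 0.079).

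Tested against each other, siPaf1 and siCdc73 differed in 30 members in 3'READS, 11 higher and 19 lower in siPaf1, or 18.9% against 14.4% of all genes. Of the 150 members that passed without siPaf1 batch 2, 9 were higher and 19 lower. In RNA-seq 7 members were higher and 18 lower in siPaf1, or 31.2% against 28.2%, and 7 and 17 of the 75. The isoform ratio differed in 4 of 30 members for CDS-APA, all lower in siPaf1, or 13.3% against 5.1% of all genes, and in 2 of 72 for 3'UTR-APA, or 2.78% against 2.08%. Without the batch term edgeR called 0 members in these contrasts. Those with an unadjusted p under 0.05 were then 12 in RNA-seq (13.2% of all genes), 23 in 3'READS (10.3%), 4 for CDS-APA (6.63%) and 2 for 3'UTR-APA (2.67%).

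Of 12 listed partners and regulators of solute carriers, the kinase Stk39, which activates sodium-coupled chloride cotransporters, fell after siPaf1 in 3'READS and was the only one of the list called there, where 18.8% of all genes were. After siCdc73 Stk39 fell, while the kinase Oxsr1 and the ubiquitin ligase Nedd4 rose, where 22.5% of all genes were called. The ATP-binding cassette transporters, a separate superfamily of pumps, had 0 that rose and 2 that fell of 33 tested in 3'READS after siPaf1, and 1 that rose and 0 that fell after siCdc73, against the same 18.8% and 22.5% of all genes. Among 5 Slco transporters of organic anions, 1 rose and 1 fell after siPaf1 and 2 fell after siCdc73 (18.8% and 22.5% of all genes called).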

How the data were processed

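3'READS measured poly(A) site use and RNA-seq measured transcript levels in 7 libraries each. Per the labels and the study's methods, the authors aligned strand-specific reads to mm9 with Bowtie2 and deposited read counts per poly(A) site and, for RNA-seq, counts per transcript with RPKM values, deposited by the authors. For RNA-seq the transcript with the most counts on average stood for its gene. The counts ranged from 2796693 to 14340927 per library, which limits precision for members near 20 reads.

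Levels were tested with edgeR 4.0.16 (TMM, filterByExpr, quasi-likelihood test, R 4.3.3) and isoform ratios with an interaction between isoform and knockdown, over all genes, with Benjamini-Hochberg adjustment. Standard errors (SE) are the log2 change divided by the root of its F statistic, and are approximate for changes near 0. Isoforms needed at least 20 reads per library on average, and sites under 5% of a gene's reads were left out. The script was tested on simulated data. Replicates are separate samples per the labels. The tests pool the spread between replicates across genes, nearly wholly so for CDS-APA and uaRNA with the batch term. Very small p-values there thus do not measure the spread between the replicates of that gene alone. Numbers pair the samples, since the labels call them batches and same-batch deviations correlated between groups (r from 0.205 to 0.825 over measures). The planned design had no batch term and called almost no member. A batch term was added to it, and the rises, falls and named genes rest on that added fit. Transcript positions came from the GENCODE annotation of NCBIM37, the assembly of mm9. Members, classes and lists were chosen with earlier results of these data known. Named genes had the smallest adjusted p in the fit with batch, a mean of at least 50 reads and the same direction in each batch. Alternatives were DESeq2 1.42.0, library size, low-count filters, the first listed transcript and leaving out each library. The result of 1 member called for 3'UTR sites after siCdc73 is not reported here.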

Additional observations from a re-analysis of the deposited data

Results flagged for a closer look

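Differences between siPaf1 and siCdc73 were tested directly in edgeR's quasi-likelihood fit with the batch term. All values here are log2 differences, siPaf1 minus siCdc73, past an adjusted p of 0.05 in that fit, and none passed it without the batch term. With 2 libraries per group no test for a single outlying library was made.

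In RNA-seq the members higher in siPaf1 were Slc9a9 by 1.50, Slc9a3r2 by 1.31, Slc26a2 by 1.06, Slc39a9 by 0.93 and Slc30a9 by 0.78. Of these calls Slc9a9 held with each library left out, Slc9a3r2 was lost without siCdc73 replicate 1 (adjusted p = 0.065), Slc26a2 without siPaf1 replicate 2 or siCdc73 replicate 2 (adjusted p = 0.26 at a value of 0.42 and 0.28), Slc39a9 without siPaf1 replicate 1, siCdc73 replicate 1 or siCdc73 replicate 2 (adjusted p = 0.14, 0.25 and 0.16), and Slc30a9 without siPaf1 replicate 1, siCdc73 replicate 1 or siCdc73 replicate 2 (adjusted p = 0.16 at a value of 0.47, 0.13 and 0.24). Those lower in siPaf1 had differences of -1.61 for Slc33a1, -1.60 for Slc40a1, -1.38 for the ADP/ATP carrier Slc25a5, -1.34 for the peptide and histidine transporter Slc15a4 and -1.08 for Slc35f5. Slc40a1 was lost without siCdc73 replicate 2 (adjusted p = 0.054) and Slc15a4 without siCdc73 replicate 2 (adjusted p = 0.078). The Slc15a4 difference was -2.25 without siPaf1 replicate 1 and -0.75 without siPaf1 replicate 2, and that of Slc26a2 was 1.68 without siPaf1 replicate 1. For Slc9a9 and Slc40a1 the siCdc73 libraries stood farther from siCtrl than the siPaf1 libraries did, whereas for Slc33a1 and Slc9a3r2 it was the siPaf1 libraries.

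In 3'READS the mitochondrial carrier Slc25a30 was higher in siPaf1 by 2.27, the fatty acid transport protein Slc27a3 by 2.19, the sodium, calcium and potassium exchanger Slc24a3 by 1.81, Slc9a3r2 by 1.79 and Slc25a17 by 1.32. The differences of those lower in siPaf1 were -2.08 for Slc6a6, -1.45 for Slc30a7, -1.37 for Slc38a6, -1.35 for Slc25a11 and -1.28 for Slc4a11. Without siCdc73 replicate 2 the calls of Slc25a30, Slc9a3r2, Slc38a6 and Slc25a11 were lost (adjusted p from 0.072 to 0.26), and those of Slc25a17, Slc4a11 and Slc30a7 without siCdc73 replicate 1 (0.057 to 0.12). The Slc25a30 difference was 1.51 and the Slc38a6 difference -0.83 in those fits. Slc9a3r2 differed in the same direction in both assays. The Slc6a6 level includes its intronic reads, which were highest in siCdc73.

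For site choice the log2 ratio of intronic and internal exon reads to 3'-most exon reads differed by -4.22 for Slc6a6, -3.95 for Slc10a7, -3.37 for Slc30a4 and -2.81 for Slc38a10. The Slc30a4 call held with each library left out. That of Slc10a7 was lost without siCtrl replicate 1, siCtrl replicate 2, siPaf1 replicate 2 or siCdc73 replicate 2 (adjusted p = 0.058, 0.12, 0.72 at a value of -2.63 and 0.95 at a value of 0.31), and its sign turned in the last of these fits. Its batch 1 difference was -0.06, and DESeq2 with the batch term gave an adjusted p of 0.13. That of Slc38a10 was lost without siPaf1 replicate 1, siPaf1 replicate 2, siCdc73 replicate 1 or siCdc73 replicate 2 (adjusted p = 0.055, 0.49, 0.060 and 0.41), and that of Slc6a6 without siPaf1 replicate 2 or siCdc73 replicate 2 (adjusted p = 0.26 and 0.086). The ratio of proximal to distal reads differed by -3.46 for Slc5a3 and -3.13 for Slc25a10. Leaving out any of the 6 siCtrl, siPaf1 and siCdc73 libraries ended the Slc25a10 call (adjusted p from 0.084 to 0.55). Slc5a3 was at -1.49 without siPaf1 replicate 2 and -2.30 without siCdc73 replicate 2, with the call lost in both (adjusted p = 0.73 and 0.42).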

How the results depend on the processing

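Values here are counts of members called at an adjusted p of 0.05. Without the batch term they were 2 after siPaf1 and 3 after siCdc73 for CDS-APA and 0 elsewhere. With batch as a replicate block, the pairing given by the labels, RNA-seq gave 30 (siPaf1), 33 (siCdc73), 4 (siSki8) and 25 (siPaf1 against siCdc73), 3'READS 32, 33, 0 and 30, 3'UTR-APA 7, 3, 0 and 2, CDS-APA 6, 8, 0 and 4, and uaRNA 1 after siCdc73.

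In the same order, DESeq2 without the block gave 6, 8, 0 and 2 in RNA-seq, 7, 12, 0 and 0 in 3'READS, 2, 1, 0 and 0 for 3'UTR-APA and 4, 7, 0 and 2 for CDS-APA. DESeq2 with the block gave 25, 28, 3 and 22 in RNA-seq, 24, 27, 5 and 28 in 3'READS, 4, 3, 0 and 1 for 3'UTR-APA and 6, 7, 0 and 3 for CDS-APA. Scaling by library size with the block gave 30, 37, 5 and 23 in RNA-seq and 29, 40, 0 and 27 in 3'READS. No low-count filter with the block gave 29, 34, 4 and 25 in RNA-seq and 39, 42, 5 and 41 in 3'READS. The first listed transcript with the block gave 30, 36, 4 and 26 in RNA-seq. A minimum of 50 reads with the block gave 3, 2, 0 and 1 for 3'UTR-APA, 6, 6, 0 and 3 for CDS-APA and 1 for uaRNA after siCdc73, and keeping sites under 5% with the block gave 3, 2, 0 and 2, and 7, 9, 0 and 2.

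Leaving out 1 library with the block gave, in that order, 8 to 36, 14 to 46, 1 to 10 and 6 to 32 in RNA-seq, 9 to 40, 18 to 51, 0 to 6 and 10 to 38 in 3'READS, 1 to 7, 0 to 5, 0 and 0 to 1 for 3'UTR-APA, 2 to 6, 3 to 8, 0 and 1 to 3 for CDS-APA, and 0 to 1 for uaRNA after siCdc73. Without the block it gave 0 to 2 and 1 to 3 for CDS-APA after siPaf1 and siCdc73 and 0 to 1 in RNA-seq after siPaf1. Within these ranges, RNA-seq after siCdc73 gave 15 without siCtrl replicate 2 and 19 without siCdc73 replicate 1, and siPaf1 against siCdc73 gave 21 without siPaf1 replicate 2 in RNA-seq and, in 3'READS, 35 without siCtrl replicate 1 and 19 without siPaf1 replicate 2 or siCdc73 replicate 1. The libraries whose omission ended a call are given beside the genes described with values, and the cause was not tested. Members near 20 reads per library and the single siSki8 library limit what could be detected.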

Other observations

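A few members with few reads had site patterns outside the rule for named genes, chosen after their values were seen. Slc17a9, the vesicular nucleotide transporter, had intronic reads of 22 of 22 and 32 of 32 in siCtrl, 16 of 24 and 20 of 30 in siPaf1, 4 of 5 and 15 of 36 in siCdc73 and 9 of 9 in siSki8, so that reads at its 3'-most exon appeared in siPaf1 and siCdc73 libraries and in none of the siCtrl and siSki8 libraries. Slc16a10, a transporter of aromatic amino acids, had intronic reads of 0 of 4 and 2 of 28 in siCtrl, 1 of 6 and 15 of 50 in siPaf1, 1 of 1 and 93 of 101 in siCdc73 and 6 of 14 in siSki8, and most of those reads came from siCdc73 batch 2. Slc30a1, the zinc exporter of the plasma membrane, had proximal 3'UTR shares of 46.2% and 36% in siCtrl, 98% and 97.7% in siPaf1, 88.6% and 80.8% in siCdc73 and 62.5% in siSki8, with every siPaf1 and siCdc73 library above the other 3.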
